A study of Mus musculus with 4 samples.

Results

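Lysosomal genes of the mouse posterior eye were examined in Visium spatial transcriptomics, in which tissue sections lie on a grid of barcoded spots and each spot yields a count of unique molecular identifiers (UMIs) per gene. The 8 genes were the proteases Ctsd, Ctsb, Ctsl, Ctss and Ctsz (cathepsins D, B, L, S and Z), Psap (prosaposin, the precursor of the saposins), Grn (progranulin) and Lamp1 (a glycoprotein of the lysosomal membrane). They were picked by symbol, with no threshold on a measured value, and each matched 1 of the 32285 genes in the matrices, of which 17463 had at least 1 UMI. The tissue came from C57BL/6J mice, and the 4 capture frames are numbered as biological replicates 1 to 4. All 4 frames carry 1 treatment label, which joins naive with AAV2/2, an adeno-associated virus used as a gene carrier in the eye. The series design names AAV2/2 vectors that carry Wif1 under the CMV promoter (CMV-Wif1-HA, or CMV-Wif1-HA-IRES-GFP, which also makes the green fluorescent protein GFP) and the control vector CMV-IRES-GFP, with WIF1 eyes taken at 2 and 4 weeks. No label says which frame, or which section of a frame, held which of these, so vectors and times were not compared here, and every group below is a tissue region compared within the same frames. Ages, and how many animals lie on a frame, are not given in the labels. The labels also give all retinal cell types as the material and nuclear RNA as the molecule.

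Lysosomes break down what a cell takes up or discards. Their cathepsins cut proteins at acidic pH, saposins help hydrolases reach membrane lipids, progranulin is cut into granulins inside the lysosome, and LAMP1 lines its membrane. In the eye, the retinal pigment epithelium engulfs the tips that photoreceptor outer segments shed each day and digests them in phagolysosomes, for which cathepsin D, an aspartic protease that cleaves rhodopsin, is the best known enzyme. Cathepsin S is a cysteine protease best known from antigen-presenting and other myeloid cells, such as microglia.

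Many lysosomal genes carry the palindrome CACGTG, the core of the site bound by the transcription factor TFEB, near their start. The 120 bases before the start are shown for Ctsd and Psap, the members that differed most in pigment epithelium spots, for Ctss, which did so in inner retina spots, and for Lamp1, which holds the most copies of the palindrome. Sequences are those of RefSeq on GRCm38.p6, on the strand of the gene, and the capitals mark CACGTG. The stretches lie at chr7:142387828-142387947 on the minus strand for Ctsd, and on the plus strand at chr10:60277508-60277627 for Psap, chr3:95526666-95526785 for Ctss and chr8:13159041-13159160 for Lamp1.
Ctsd: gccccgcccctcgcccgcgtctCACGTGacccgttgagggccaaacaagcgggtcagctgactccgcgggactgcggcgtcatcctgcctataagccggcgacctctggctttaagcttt
Psap: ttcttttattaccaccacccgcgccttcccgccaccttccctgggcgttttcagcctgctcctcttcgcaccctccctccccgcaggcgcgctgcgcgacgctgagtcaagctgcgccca
Ctss: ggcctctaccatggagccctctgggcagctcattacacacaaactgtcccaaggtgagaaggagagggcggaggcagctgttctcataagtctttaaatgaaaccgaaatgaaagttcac
Lamp1: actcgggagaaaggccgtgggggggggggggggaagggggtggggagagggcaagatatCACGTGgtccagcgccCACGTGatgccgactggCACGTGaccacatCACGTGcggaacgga

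The search covered 300 bases from 250 before to 50 after each start, for 8 promoters of 7 members (Psap has 2 starts), while Ctsb had no entry. CACGTG, which reads the same on both strands, was present in 3 of these 8 promoters (37.5%), against 7.15% of all 32851 promoters in the table. Lamp1 held 4 copies, whose first bases lay at -61, -45, -28 and -15 (the base just before the start is -1). Ctsd held 2, at -245 and -98, and the second of them is the core of the longer palindrome TCACGTGA at -99, which 0.974% of all promoters hold. Ctsl held 1, at -236, outside the stretch that was extracted. Psap, Ctss, Ctsz and Grn had none in this window.

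Regions were named by the panel genes that lead each cluster of spots, and a spot is a small area that can hold several kinds of cell, so a share below is a share of spots. Pigment epithelium spots numbered 176 and were led by Rpe65, Lrat, Rgr, Rdh5 and Kcnj13, genes of the visual cycle and the ion channels of that layer. Frames 1 to 4 held 21, 82, 55 and 18 of them. The neural retina comprised 1424 spots: 869 led by photoreceptor genes, 202 by genes of the inner nuclear layer and 353 by ganglion cell genes, and the last 2 kinds together are called the inner retina. Fibrous spots (173, led by Col1a2, Dcn and Col1a1) stand for scleral tissue, myelin spots (76, with Mobp, Mbp and Cldn11 among their leading genes) for the optic nerve, and melanocyte spots (84, led by Trpm1, Dct, Mlana and Pmel) for other pigmented tissue. A further 2160 of 4603 spots fell short of 20 panel UMIs and belong to no region. No member was used to draw the regions.

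The regions were not pure. The summed level of the photoreceptor panel, 20 genes that all had UMIs in each of the regions named next, was 33181 ± 2929 CPM (UMIs of a gene per 1000000 UMIs of the region; SD, n = 4 frames) in pigment epithelium spots and 54907 ± 13156 CPM in fibrous spots, against 41842 ± 4534 CPM in neural retina spots. The pigment epithelium panel reached 13274 ± 1745 CPM in pigment epithelium spots and 2605 ± 792 CPM in fibrous spots, against 445 ± 110 CPM in neural retina spots. The 7 melanocyte panel genes, some of which pigment epithelium also expresses, summed to 5758 ± 3994 CPM (972 to 10711) in pigment epithelium spots and to 4288 ± 1614 CPM in fibrous spots, against 742 ± 247 CPM in neural retina spots. The fibrous panel summed to 1752 ± 1319 CPM (1024 to 3729) in pigment epithelium spots, against 476 ± 96.6 CPM in neural retina spots. The vessel panel summed to 1386 ± 1316 CPM (442 to 3332) in pigment epithelium spots, against 325 ± 31.6 CPM in neural retina spots. Plvap, a gene of the vessel panel, was also among the leading genes of the pigment epithelium cluster. Fewer cells of a type and less RNA per cell cannot be told apart in such sums. Depth differed as well: the median was 633.5 UMIs per pigment epithelium spot, 1371 per fibrous spot and 393 per myelin spot, against 1015.5 per neural retina spot.

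Over all spots, the frames gave 674029 to 1066633 UMIs each. The members held 1603 UMIs (Psap), 961 (Ctsb), 864 (Ctsd), 576 (Lamp1), 376 (Ctss), 361 (Ctsl), 169 (Grn) and 156 (Ctsz) in all 4 frames together. Ctsd stood at 234, 248, 299 and 185 CPM in frames 1 to 4 and Psap at 435, 509, 472 and 374 CPM. Ctsz and Lamp1 varied least, at 44.3 ± 2.87 and 164 ± 15.4 CPM (SD, n = 4), and Grn most, with 80.6 CPM in frame 2 against 30.1, 37.3 and 34.1 CPM in the other 3. Frame 4 was lowest for Ctsd, Ctsl, Ctss and Psap and highest for Lamp1, at 184 CPM. Frame 4 also had the fewest UMIs and set itself apart from each of the other frames in gene composition, with 8.20 to 10.6 chi-square units per degree of freedom against 2.80 to 3.89 among frames 1, 2 and 3.

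**Figure D1:**
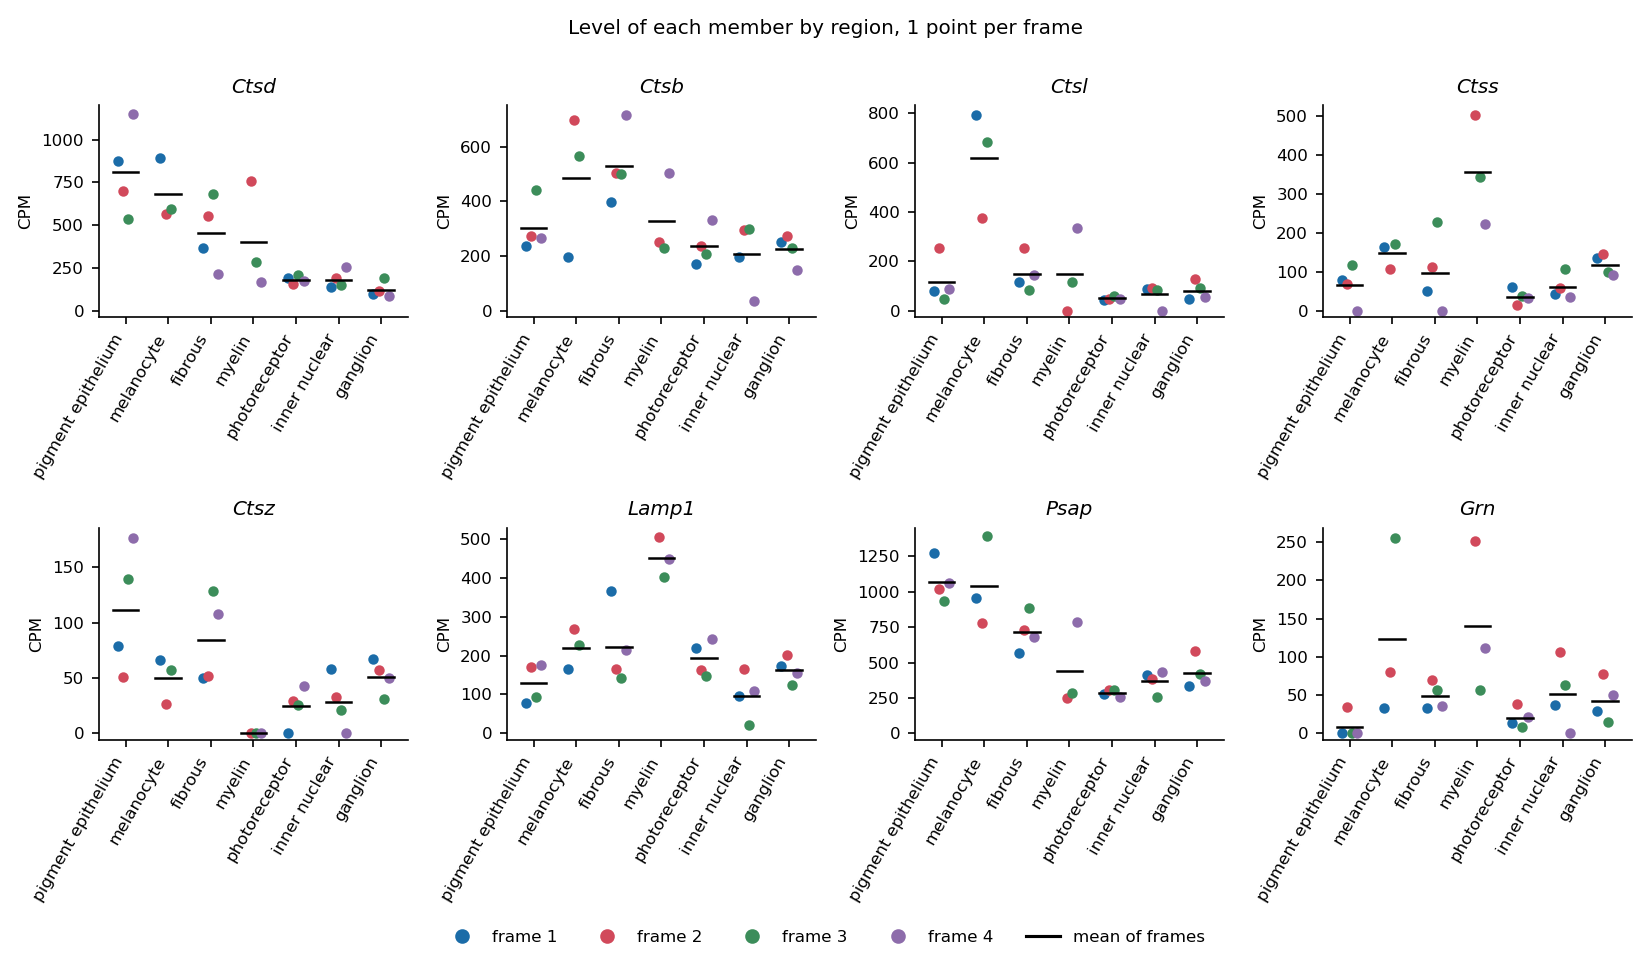
Level of each of the 8 genes (y axis, CPM on a linear scale from 0, a scale of its own for each gene) in 7 regions (x axis), 1 point per frame with at least 10 spots of the region and a bar at the mean of those frames. Ctsd and Psap sit highest in pigment epithelium and melanocyte spots, with all 4 pigment epithelium points above every point of the 3 neural layers, while Ctss and Lamp1 have their highest means in myelin spots and Ctsl in melanocyte spots.

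The first comparison set pigment epithelium spots, which lie where shed discs are digested, against the neural retina of the same frames. Ctsd and Psap were higher in pigment epithelium spots. Ctsd reached 873, 698, 535 and 1148 CPM in the pigment epithelium spots of frames 1 to 4, against 153, 147, 198 and 144 CPM in neural retina spots. The lowest pigment epithelium value was above the highest neural retina value, although the pigment epithelium values rest on 11, 41, 23 and 13 UMIs. The log2 fold of Ctsd was 2.23 (SD over frames 0.42, higher in 4 of 4 frames, edgeR adjusted p = 2.96e-07).

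Psap, whose saposins are needed to break down sphingolipids, was also higher in pigment epithelium spots than in neural retina spots. It stood at 1269, 1021, 931 and 1060 CPM in pigment epithelium spots, against 330, 427, 336 and 316 CPM in neural retina spots, again without overlap. Its log2 fold was 1.56 (SD over frames 0.18, higher in 4 of 4 frames, edgeR adjusted p = 5.87e-05). Of the 7 members that passed the filter on low counts, 2 were higher and none was lower, where 4.19% of the 2959 genes tested were higher and 3.75% lower. The median log2 fold was 0.86 over the 7 members and -0.27 over all genes tested. Ctsd was called in each of 10 other settings and with each frame left out. Psap was called in 9 of 10 settings and with each frame left out, and with no filter on low counts its log2 fold was 0.99 with an edgeR adjusted p of 0.229.

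None of the cysteine proteases passed. Ctsz, a carboxypeptidase, came nearest, with 79.3, 51.1, 140 and 177 CPM in pigment epithelium spots against 33.2, 40.2, 26.6 and 42.3 CPM in neural retina spots. Its log2 fold was 1.54, but only 12 pigment epithelium UMIs lie behind it and the edgeR adjusted p was 0.142. Ctsl, an endopeptidase also known from thymus and skin, had a log2 fold of 0.86 (edgeR adjusted p = 0.563) that rested on frame 2, where it stood at 255 CPM against 46.6 to 88.3 CPM in the pigment epithelium spots of the other frames. Without frame 2 its log2 fold was -0.04. Ctsb, the most widely expressed cysteine cathepsin, stood at 304 ± 93.1 CPM in pigment epithelium spots and 231 ± 27.8 CPM in neural retina spots (SD, n = 4), with a log2 fold of 0.45 (edgeR adjusted p = 0.695).

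Lamp1 and Ctss also missed the limit. Lamp1 stood at 130 ± 50.7 CPM in pigment epithelium spots and 168 ± 30.4 CPM in neural retina spots (SD, n = 4), and its log2 fold was -0.27 (edgeR adjusted p = 0.876). Ctss stood at 66.0 ± 48.6 CPM in pigment epithelium spots and 66.9 ± 7.82 CPM in neural retina spots (SD, n = 4), with a log2 fold of 0.23 (edgeR adjusted p = 0.923). Grn was too low to be tested. It had 2 UMIs in all pigment epithelium spots, both in frame 2, which is 15.9 CPM (exact Poisson 95% interval 1.93 to 57.5), against 37.3 CPM (28.8 to 47.6) in neural retina spots. The 2 intervals overlap, so a difference in Grn was not detectable at this depth. Intervals cover counting error only.

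**Figure D2:**
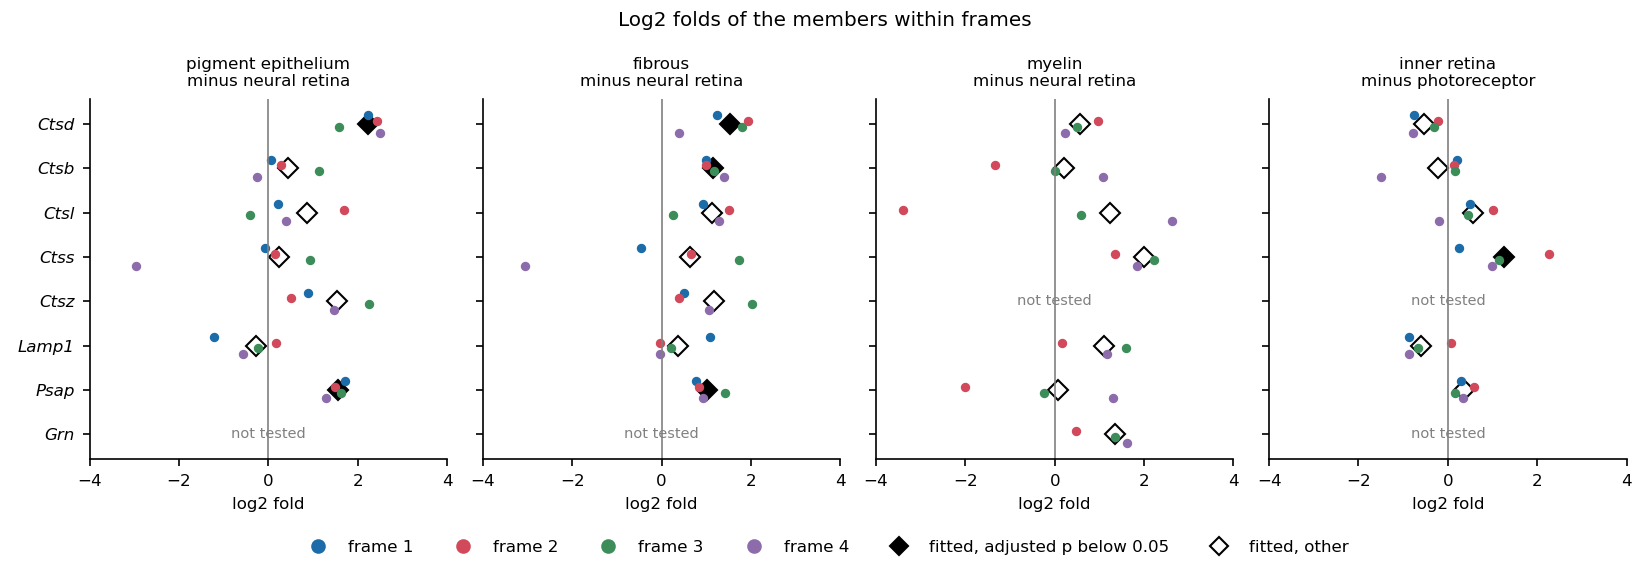
Log2 fold of each gene (rows) in 4 comparisons (panels, x axis in log2 units with 0 marked), with a coloured point for each frame and a diamond for the fitted value, filled where the edgeR adjusted p was below 0.05. In pigment epithelium minus neural retina the frame points of Ctsd (1.57 to 2.50) and Psap (1.30 to 1.70) all lie to the right of 0, while those of Ctss run from -2.97 to 0.93.

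The rest of the degradative machinery in pigment epithelium spots was read from 7 lists of lysosomal and phagocytic genes. The lists were drawn up from textbook roles, but with earlier results of these data known. Among other cathepsins and lysosomal peptidases, 1 of 4 tested was higher: Tpp1, a tripeptidyl peptidase, with a log2 fold of 1.95 (SD over frames 2.49, higher in 3 of 4 frames, edgeR adjusted p = 0.0404), and 0 UMIs in the 21 pigment epithelium spots of frame 1. Among glycosidases and lipid hydrolases, 3 of 6 tested were higher, all of which handle lipids. Npc2, which carries cholesterol out of the lysosome, stood at 162 ± 80.0 CPM in pigment epithelium spots and 29.2 ± 8.37 CPM in neural retina spots (SD, n = 4), with a log2 fold of 2.31. Gm2a, the activator protein for ganglioside breakdown, and Smpd1, the acid sphingomyelinase, had log2 folds of 1.77 and 1.01 (edgeR adjusted p = 0.0185 and 0.0274).

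Of lysosomal membrane genes, 2 of 7 tested were higher. They were Gpnmb, a glycoprotein of melanosomes and lysosomes (log2 fold 2.68), and the tetraspanin Cd63 (log2 fold 2.04). None of 15 tested subunits of the V-ATPase, the proton pump that acidifies the lysosome, passed the test, and their median log2 fold of -0.27 was that of all genes tested. Of 2 sorting genes tested, the endocytic receptor Lrp1 was higher (log2 fold 2.60, SD over frames 1.13, edgeR adjusted p = 0.000773). Of 3 cathepsin inhibitors tested, Cst3 was higher. Cst3 encodes cystatin C, a secreted inhibitor of cysteine cathepsins, and stood at 7061, 8034, 9755 and 4417 CPM in pigment epithelium spots, against 2001, 1912, 2696 and 1911 CPM in neural retina spots, with a log2 fold of 1.72 (edgeR adjusted p = 9.56e-10).

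The list of 23 disc phagocytosis genes had 12 members tested, of which 3 were higher and none lower, with a median log2 fold of -0.06. Itgav, the integrin subunit that binds shed discs together with Itgb5, stood at 317, 766, 396 and 883 CPM in pigment epithelium spots, against 90.8, 68.9, 58.0 and 62.1 CPM in neural retina spots. Its log2 fold was 3.04 (SD over frames 0.91, higher in 4 of 4 frames, edgeR adjusted p = 3.06e-09). Ezr, which encodes ezrin of the apical microvilli, had a log2 fold of 3.03 (edgeR adjusted p = 1.09e-05), with 35 of its 53 pigment epithelium UMIs in frame 2 and none in frame 4. Cd81, a tetraspanin reported to work with the integrin in disc uptake, had a log2 fold of 0.82 (higher in 3 of 4 frames, edgeR adjusted p = 0.0424).

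The engulfment receptor Mertk, which starts the ingestion of bound discs, could not be tested, with 1 UMI in all pigment epithelium spots and 3 in all neural retina spots. Itgb5 could not be tested either, with 4 and 18 UMIs. The bridging ligands Gas6 and Mfge8 were tested and did not pass, with log2 folds of -1.31 and -0.27 (edgeR adjusted p = 0.493 and 0.907). Gas6 had 4 UMIs in pigment epithelium spots and 140 in neural retina spots.

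Markers of myeloid cells, which also express cathepsins, were read beside these folds. Of 20 such genes, 10 had UMIs in pigment epithelium spots: C1qa, C1qb, C1qc, Tyrobp, Csf1r, Ly86, Ptprc, Lyz2, Cd74 and Itgam. The 10 at 0 were Aif1, Cd14, Cx3cr1, Fcer1g, Fcrls, Laptm5, Mrc1, P2ry12, Tmem119 and Trem2. Pigment epithelium spots held 125632 UMIs in all, against 1742139 in neural retina spots, so a count of 0 does not show absence. The 20 genes summed to 842 ± 319 CPM (535 to 1269) in pigment epithelium spots and to 603 ± 104 CPM (455 to 697) in neural retina spots (SD, n = 4). None of the 5 tested passed, and their median log2 fold was 0.655, against -0.27 over all genes tested. With every spot that held a UMI of 12 of these markers removed, both Ctsd and Psap were still called. At this depth a spot can hold myeloid RNA without such a UMI, so the removal does not take out all of it. Melanocyte panel genes also had higher mean sums in pigment epithelium and fibrous spots than in neural retina spots, as given above. Melanocyte spots themselves held 684 ± 181 CPM of Ctsd and 1042 ± 316 CPM of Psap (SD, n = 3). The parts of melanocytes and of myeloid cells in the folds of pigment epithelium and fibrous spots were not tested. Nor were the parts of fibrous tissue and vessels in the folds of pigment epithelium spots. The fibrous and vessel panels had higher mean sums in pigment epithelium spots than in neural retina spots, as given above.

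**Figure D3:**
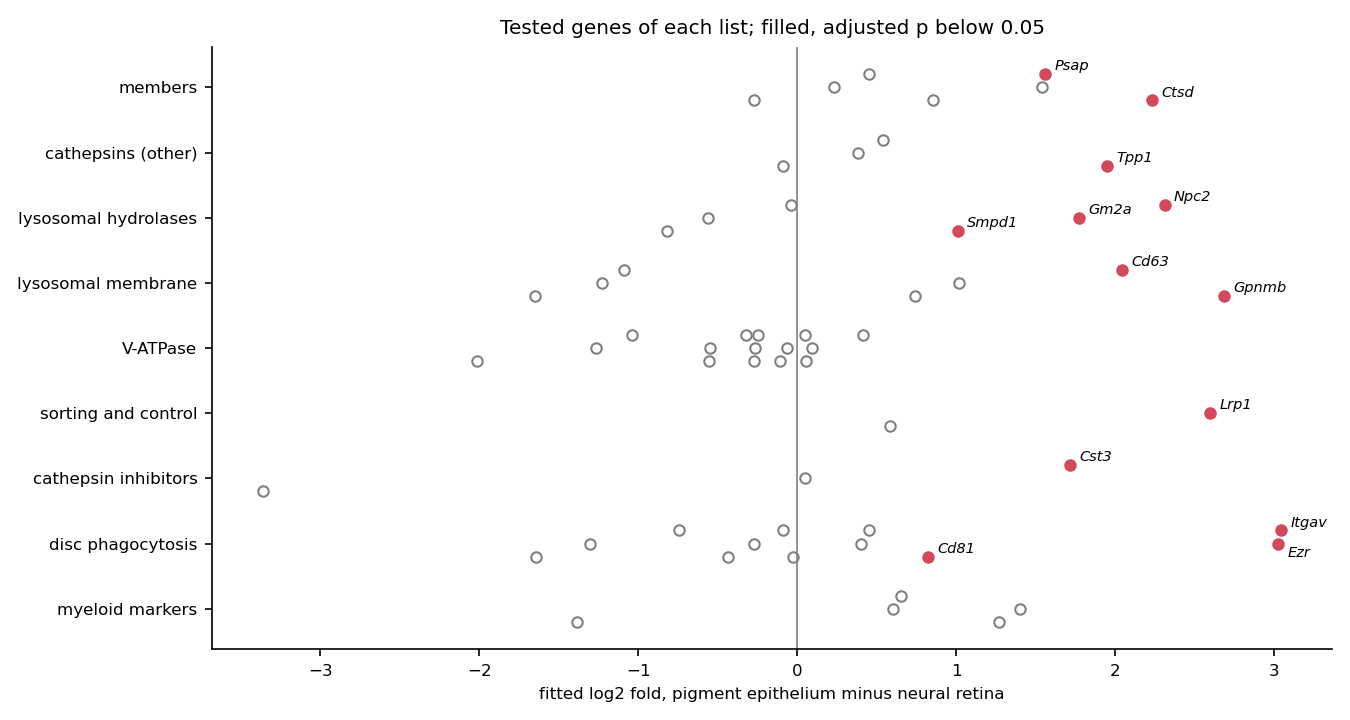
Fitted log2 fold, pigment epithelium minus neural retina (x axis), of every tested gene in each list (rows), with the genes past an edgeR adjusted p of 0.05 filled and named. The named genes reach from 0.82 (Cd81) to 3.04 (Itgav), all to the right of 0, and the 15 V-ATPase genes hold no filled point.

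Fibrous spots were compared with the neural retina in the same way. Ctsd, Ctsb and Psap were higher in fibrous spots. Ctsb stood at 398, 504, 500 and 718 CPM in the fibrous spots of frames 1 to 4, against 197, 264, 225 and 237 CPM in neural retina spots, with no overlap between the groups. Its log2 fold was 1.15 (SD over frames 0.19, edgeR adjusted p = 0.00134). Ctsd stood at 365, 556, 685 and 216 CPM in fibrous spots, against 153, 147, 198 and 144 CPM in neural retina spots, with a log2 fold of 1.54 (SD over frames 0.70, edgeR adjusted p = 0.000473).

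Psap stood at 715 ± 133 CPM in fibrous spots and 352 ± 50.4 CPM in neural retina spots (SD, n = 4), with a log2 fold of 1.02 (edgeR adjusted p = 0.00155). Thus 3 of 7 members tested were higher and none lower, where 4.09% of 3494 genes were higher and 5.87% lower. Ctsl and Ctsz had log2 folds of 1.13 and 1.16 that did not pass (edgeR adjusted p = 0.0746 and 0.167), and Lamp1 had 0.37. Without the replicate block Ctsl passed as well, with a log2 fold of 1.27.

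Myeloid markers were also higher in fibrous spots. Of 7 tested, 4 passed (Lyz2, Csf1r, C1qa and Cd74, with log2 folds of 1.57 to 2.62), and the list summed to 829 to 1613 CPM in fibrous spots and 455 to 697 CPM in neural retina spots, with Cd14, Cx3cr1 and Itgam at 0 in fibrous spots. With every spot that held a myeloid-marker UMI removed, 31, 32 and 24 fibrous spots stayed in frames 1 to 3, and frame 4, with 6, was not used. Ctsd was then still called, while Ctsb had a log2 fold of 0.63 (edgeR adjusted p = 0.424) and Psap one of 0.92 (edgeR adjusted p = 0.0602). Their calls were also lost with regions drawn from a lower panel minimum or from the highest marker class, and with no filter on low counts.

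Of lipid hydrolases, Gm2a (log2 fold 1.72), Hexa, a subunit of hexosaminidase (2.02), and Smpd1 (0.68) were higher among 7 tested. Of membrane genes, Gpnmb (2.76), Cd63 (1.61) and Laptm4b (0.80) were higher among 7. Igf2r, the mannose 6-phosphate receptor that also sorts hydrolases, had a log2 fold of 1.58 (edgeR adjusted p = 0.0407), and Cst3 one of 1.11. Of 13 disc phagocytosis genes tested, Cd81 (0.75) and Ezr (1.53) were higher and Rab7, a GTPase of late endosomes and phagosomes, was lower (-0.86, lower in 4 of 4 frames). Of 15 V-ATPase subunits, 3 were lower: Atp6v1g2, Atp6v1d and Atp6v1e1, with log2 folds of -2.77, -1.93 and -1.33.

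Pigment epithelium spots set directly against fibrous spots gave no call for a member. Only 3 members could be tested among 755 genes, of which 5.03% were higher and 1.46% lower in pigment epithelium spots (38 and 11 genes, against 33 and 4 with DESeq2). Ctsd had a log2 fold of 0.70 (frames from -0.30 to 2.20, edgeR adjusted p = 0.348), Psap of 0.58 (0.10 to 1.11, edgeR adjusted p = 0.353) and Ctsb of -0.67 (-1.33 to -0.13, edgeR adjusted p = 0.386). At an unadjusted p below 0.05 the count was also 0. The excess of Ctsd and Psap over the neural retina is therefore not shown to be larger in pigment epithelium than in fibrous spots. Among the list genes, Itgav (log2 fold 1.98), Rac1, a GTPase of phagocytic cup closure (0.81), and Cst3 (0.68) were higher in pigment epithelium spots, and Laptm4b was lower (-2.03).

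Ctsl had its highest mean level in melanocyte spots, and its comparison with pigment epithelium spots was added after its levels had been seen. It stood at 792, 375 and 682 CPM in the melanocyte spots of frames 1 to 3, against 79.3, 255 and 46.6 CPM in pigment epithelium spots. Frame 4 had 3 melanocyte spots and was not used. The log2 fold of Ctsl was 1.96 (SD over frames 1.40, higher in 3 of 3 frames, edgeR adjusted p = 0.00186), and it was the single member called of 4 tested, where 12.7% of 566 genes were higher and 12.2% lower. This p-value is not an independent test, because the levels of Ctsl prompted the comparison. In these frames Ctsl had 1, 15 and 2 UMIs in pigment epithelium spots, against 24, 14 and 24 in melanocyte spots. The call was lost without frame 1 (log2 fold 1.74, edgeR adjusted p = 0.171) and without frame 3 (1.27, edgeR adjusted p = 0.211).

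Ctsd and Psap did not differ detectably between melanocyte and pigment epithelium spots, with log2 folds of -0.09 (frames from -0.42 to 0.18) and -0.08 (-0.51 to 0.59). Myeloid markers summed to 2226 to 3637 CPM in melanocyte spots, against 535 to 1269 CPM in pigment epithelium spots. Of the 20 markers, 17 had UMIs in melanocyte spots, with Cd14, Fcrls and P2ry12 at 0. Too few melanocyte spots lacked a myeloid-marker UMI to repeat the test in them. Of 3 membrane genes tested, Gpnmb (log2 fold 2.82) and Laptm4a (2.12) were higher in melanocyte spots. Of 2 inhibitors tested, Serpina3n, a serpin known to inhibit serine proteases, was higher (4.52) and Cst3 lower (-1.74). Of 5 disc phagocytosis genes tested, Cd81 was higher (0.80) and Itgav lower (-1.88).

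Myelin spots, present in frames 2, 3 and 4, gave the highest mean levels of Ctss, Lamp1 and Grn among the 7 regions plotted, but no call. Ctss stood at 504, 344 and 224 CPM in myelin spots, against 72.7, 65.3 and 56.4 CPM in the neural retina spots of the same frames, on 2, 6 and 4 UMIs. The log2 fold of Ctss, 2.00 (SD over frames 0.44), had an edgeR adjusted p of 0.145. Lamp1 stood at 504, 401 and 447 CPM in myelin spots, against 178, 126 and 198 CPM in neural retina spots, with a log2 fold of 1.11 (edgeR adjusted p = 0.392). Grn had a log2 fold of 1.35 (edgeR adjusted p = 0.377) on 4 myelin UMIs. With frames pooled, Grn was lower in myelin spots (102 CPM) than in melanocyte spots (123 CPM), so its rank by mean is not firm.

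None of 7 members tested in myelin spots passed edgeR's test, with 1 (Ctss) below an unadjusted p of 0.05 and none called by DESeq2, where 4.38% of 2785 genes were higher and 4.31% lower (122 and 120 genes, against 118 and 282 with DESeq2). The median log2 fold was 1.11 over the members, while that of all genes tested was -1.08. Without the replicate block Ctss passed (log2 fold 2.01, edgeR adjusted p = 0.0104). Ctsz had 0 of 39293 UMIs in myelin spots, where the limit of 3 counts set on a count of 0 is 76.3 CPM, against 35.6 CPM in neural retina spots, so a lower level of Ctsz was not detectable. The myeloid markers Tyrobp and Ly86 were higher in myelin spots (log2 folds 2.52 and 2.32), and their list, 12 of 20 genes with UMIs, summed to 1721 to 2180 CPM there. Cd63 (2.74), Npc2 (2.36), Lgals3, a galectin of phagocytic cells (3.36), and Serpina3n (3.97) were also higher.

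Within the neural retina, Ctss was higher in inner retina spots than in photoreceptor spots. It stood at 83.0, 111, 102 and 83.2 CPM in the inner retina spots of frames 1 to 4, against 61.7, 14.4, 38.0 and 32.3 CPM in photoreceptor spots. All 4 inner retina values lie above all 4 photoreceptor values. The share of all genes without overlap was not counted, so this describes the values only. The log2 fold was 1.25 (SD over frames 0.83, edgeR adjusted p = 0.00998), and Ctss was the single member called of 6 tested, where 26.9% of 3156 genes were higher and 23.5% lower. Without frame 2 the log2 fold was 0.85 (edgeR adjusted p = 0.123), with DESeq2 it was 1.30 (adjusted p = 0.0518) and with Leiden resolution 1 it was 0.90 (edgeR adjusted p = 0.0529). Ctss was too low to be tested without the spots that held a myeloid UMI. By layer, the mean level of Ctss was 118 ± 25.8 CPM in ganglion spots, 61.0 ± 31.6 CPM in inner nuclear spots and 36.6 ± 19.5 CPM in photoreceptor spots (SD, n = 4), and the last 2 layers overlap.

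Ctsd and Lamp1 had folds of the opposite sign that did not pass. Ctsd stood at 139 ± 30.6 CPM in inner retina spots and 182 ± 24.5 CPM in photoreceptor spots (SD, n = 4), with a log2 fold of -0.53 (lower in 4 of 4 frames, edgeR adjusted p = 0.0867). Lamp1 had a log2 fold of -0.60 (edgeR adjusted p = 0.0579), Psap of 0.36 (edgeR adjusted p = 0.109) and Ctsb of -0.22 (edgeR adjusted p = 0.523). Ctsd, Lamp1 and Psap each passed in some other settings: Psap with a panel minimum of 50 UMIs (0.83, edgeR adjusted p = 0.0172), Ctsd with Leiden resolution 1 (-0.66, edgeR adjusted p = 0.0256) and with k-means (-0.60, edgeR adjusted p = 0.0331), and Lamp1 with a minimum of 10 (-0.59, edgeR adjusted p = 0.0439), without myeloid spots (-0.87, edgeR adjusted p = 0.0292) and without frame 2 (-0.87, edgeR adjusted p = 0.0239). The list counts that follow stand beside 26.9% of all 3156 genes tested that were higher and 23.5% that were lower. The V-ATPase subunits were higher in inner retina spots in 7 of 15 cases and lower in none, led by Atp6v1g2 (2.50), Atp6v1c1 (1.79), Atp6v1e1 (1.46) and Atp6v0a1 (1.46). Most of the other lists held calls in both directions, and with so many genes called such counts describe the lists only. Of 10 disc phagocytosis genes tested, 5 were higher (Rac1 1.39, Rab7 1.30, Map1lc3a 1.16, Atg7 0.92 and Cd81 0.41) and 2 lower, the bridging ligands Mfge8 (-2.38) and Gas6 (-0.81). Of 3 other cathepsins tested, Ctsc, the dipeptidyl peptidase that activates granule proteases of immune cells, was higher (0.91) and Ctsf lower (-1.05). Of 3 inhibitors tested, Spock2 was higher (3.07) and Cst3 lower (-1.34). Of 6 glycosidases and lipid hydrolases tested, 2 were higher and 2 lower, and of 5 membrane genes 2 were higher and 1 lower. Of 4 myeloid markers tested, Ptprc (1.48) and Ly86 (0.94) were higher.

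Myeloid cells are scattered through the inner retina, so its spots were divided by whether they held a UMI of 12 myeloid genes that include no member. Such spots numbered 191, against 364 without. Ctss stood at 127, 228, 197 and 142 CPM in the spots with a myeloid UMI in frames 1 to 4, against 50.5, 22.4, 45.1 and 40.9 CPM in the spots without, and the groups did not overlap. Its log2 fold was 2.15 (SD over frames 0.65, higher in 4 of 4 frames, edgeR adjusted p = 0.00168). It was the single member called of 5 tested, where 1.64% of 1828 genes were higher and 0.438% lower (30 and 8 genes, against 26 and 3 with DESeq2).

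Psap stood at 440, 683, 546 and 497 CPM in the spots with a myeloid UMI, against 332, 370, 271 and 296 CPM in those without. Its log2 fold of 0.76 missed the limit, with an edgeR adjusted p of 0.0658. Ctsd (0.96, edgeR adjusted p = 0.157) and Ctsb (0.90, edgeR adjusted p = 0.126) had positive folds in 4 of 4 frames and also missed the limit. Outside the 12 genes, Ptprc (2.20) and Ctsc (1.56) were higher in the spots with a myeloid UMI, Ctsc at 722 ± 275 CPM against 242 ± 85.8 CPM (SD, n = 4). None of 15 V-ATPase subunits and none of 5 disc phagocytosis genes passed.

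Spot depth differed in the same direction: the spots with a myeloid UMI had a median of 1693 UMIs, against 1263 for the others. When the myeloid call was made on each spot thinned to 300 UMIs, the log2 fold of Ctss was 1.53 and its edgeR adjusted p 0.825. The thinned call kept only 11, 27 and 14 spots with a myeloid UMI in frames 1, 2 and 4. Frame 3, with 9, was not used, and spots that lost their myeloid UMI to thinning joined the other group. Without thinning and without frame 2, the log2 fold of Ctss was 1.71 (edgeR adjusted p = 0.169). The part of spot depth in the difference was not tested further.

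**Figure D4:**
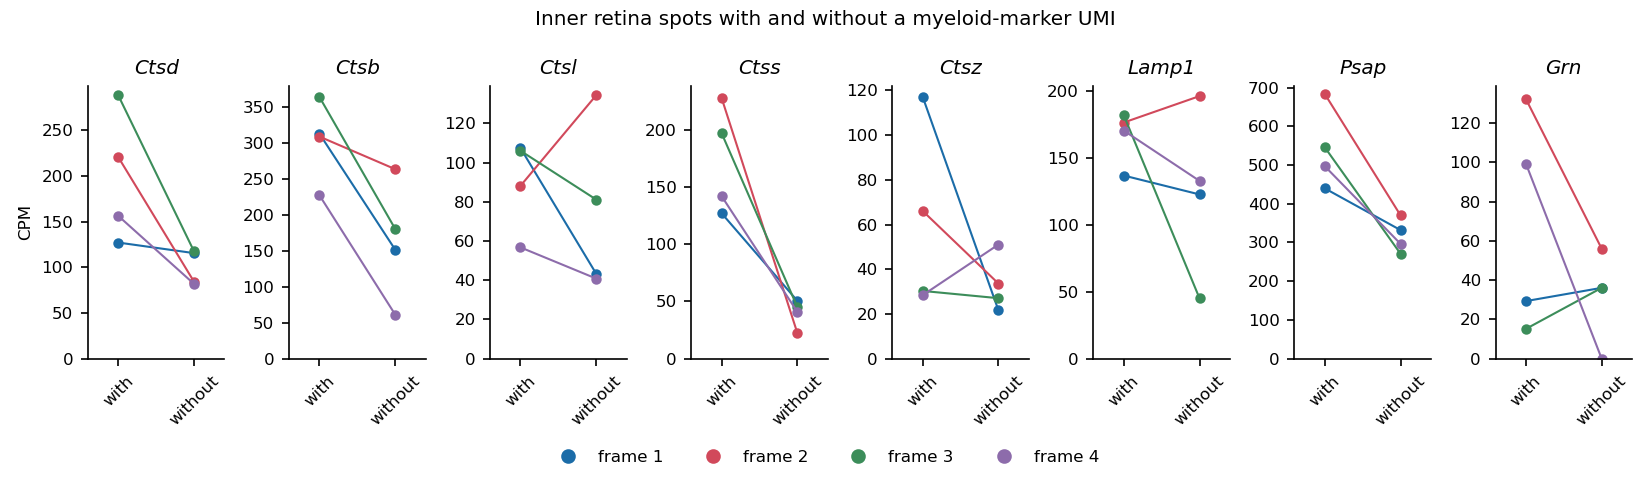
Level of each of the 8 genes (y axis, CPM on a linear scale from 0, a scale of its own for each gene) in inner retina spots with and without a UMI of 12 myeloid genes (x axis), with a line for each frame. Ctss and Psap are higher in the spots with such a UMI in all 4 frames, while Lamp1 and Ctsl are higher in 3 of 4 frames.

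The members did not share 1 pattern over the regions. Over 23 points, the regions of pigment epithelium, fibrous tissue, myelin and the 3 neural layers in each frame that held them, Pearson's r of log2(CPM + 10) between pairs of members ran from -0.42 (Ctss with Ctsz) to 0.64 (Ctsb with Ctsl), with 0.62 for Ctsd with Psap. These points share frames and differ in depth, so r is given as a description only. Among 2976 genes, Ctsd was most like Enpp2 (autotaxin, r = 0.89), Slc13a3 (a dicarboxylate transporter, 0.88) and Ptgds (prostaglandin D synthase, 0.86). Psap was most like Tmem98 (0.84), Abhd2 (0.81) and Tns2 (0.81), and Ctss most like Fads2 (0.83), Pkp4 (0.83) and Aplp1 (0.82). The nearest genes were Rplp0 (0.74), Rpl23 (0.73) and Rpl29 (0.67) for Ctsb, Cyba (0.78), Srp14 (0.77) and Psenen (0.77) for Ctsl, Dennd3 (0.82), Cops6 (0.79) and Cct7 (0.77) for Ctsz, Sirt2 (0.73) and Dbndd2 (0.69) for Lamp1, and Srsf9 (0.78), Pfn1 (0.77) and Vim (0.74) for Grn.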

How the data were processed

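Counts of UMIs, 1 whole number per gene and spot, were deposited as the authors made them, with Space Ranger 2.0.0 per the file headers and on mm10 per the submitters' processing notes. The annotation release is not given in the sources used. Spots over tissue in all 4 frames were used, with 674029 to 1066633 UMIs per frame. Pairs of frames shared 220 to 824 spot barcodes, which come from a common set, and no frame repeated another. Slide images and positions were not used here.

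From the deposited counts, levels were computed as CPM of all UMIs, with exact Poisson 95% intervals; for a count of 0 the upper limit given is 3 counts. Spots with at least 20 UMIs of a 135-gene panel in 11 classes were scaled to 10000, log-transformed, reduced to 10 principal components and partitioned with Leiden (scanpy 1.11.5, 15 neighbours, resolution 0.6). A cluster took the class holding most of its 10 leading genes, at least 3. A cluster of 242 spots with mixed leaders was not used.

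UMIs were summed per frame and region. A frame entered a comparison with 10 or more spots of each region, and a comparison needed 3 frames. edgeR 4.0.16 (filterByExpr with minimum count 10, TMM, robust quasi-likelihood, Benjamini-Hochberg over all genes tested, limit 0.05) was run in R 4.3.3 without the panel genes, or without the 12 myeloid genes in the comparison they define. The replicate block was the frame, which 2 compared regions share; the correlation of their deviations ran from -0.04 to 0.22. P-values measure the spread between frames, whose animals are not given. Where groups are said not to overlap, the share of all genes tested without overlap was not counted, so this describes the values only. Tested on simulated data for pigment epithelium minus neural retina, with 3127 genes, the fit recovered 6.41% of 2-fold and 67.9% of 4-fold changes and called 1 of 2971 unchanged genes. These percentages are of the 78 altered genes of each fold that passed the filter. The simulated counts came from 1 pooled expression profile with 1 fixed dispersion and no difference in expression between frames, unlike the data. Alternatives were DESeq2 1.42.0, other region definitions, no filter, panel genes kept, no block, spots without myeloid UMIs, a thinned myeloid call and each frame left out.

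The 8 members, the 8 gene lists and the panel were chosen with earlier results of these data known. The rule named all members, the 3 genes most like each member and, of each list, at most 3 that passed in pigment epithelium minus neural retina, by lowest p; genes named from lists in other comparisons were chosen after their values were seen. A gene most like a member is not reported here. List genes were not refitted under the alternatives. Promoters were matched by symbol.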

Additional observations from a re-analysis of the deposited data

Results flagged for a closer look

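Within groups of 4 frames, 92 sets of values were checked for a frame that stood apart from the other 3, by the gap to its nearest neighbour over the whole range (Dixon's 95% limit), and 8 were found; chance gives about 1 in 20. None of the 8 was traced to a cause. Grn was 80.6 CPM over all spots of frame 2, against 30.1, 37.3 and 34.1 CPM in the others, and 34 CPM in pigment epithelium spots of frame 2, on 2 UMIs, against 0 in the others. Psap was 505 CPM in inner retina spots of frame 2, against 378, 373 and 380 CPM. In frame 3, Ctsd was 198 CPM in neural retina spots, against 153, 147 and 144 CPM, Ctsb was 442 CPM in pigment epithelium spots, against 238, 272 and 265 CPM, and Ctsz was 48.6 CPM over all spots, against 42.4, 43.1 and 43.0 CPM. In frame 4, Ctsl was 0 CPM in 18 inner nuclear spots, where the limit of 3 counts is 108 CPM, against 87.6, 90.4 and 85.2 CPM. The log2 fold of Ctsb between inner retina and photoreceptor spots was -1.50 in frame 4, against 0.20, 0.14 and 0.15 in the others.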

How the results depend on the processing

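Ctsd in pigment epithelium and in fibrous spots kept its direction and call in every alternative run, and the mean CPM of each member over all spots moved by less than its SD when mitochondrially encoded and haemoglobin genes left the total. Of members called in pigment epithelium spots, 1 remained in count with no filter on low counts, against 2. Of those in fibrous spots, 1 was counted with a panel minimum of 10 UMIs, with regions by highest marker class, with no filter and without spots holding a myeloid UMI, against 3. In inner retina minus photoreceptor, 0 members were higher with DESeq2, Leiden resolution 1 and no myeloid spots, where Ctss was too low to be tested, against 1 (with a minimum of 50 the 1 was Psap, and Ctss could not be tested), and 1 was lower with the minimum of 10, resolution 1, k-means and no myeloid spots, against 0. For myeloid-marker spots the number higher was 2, with Psap added, with the minimum of 10 and with k-means, and 0 with a minimum of 50, where Ctss was too low to be tested, and with the thinned call, against 1. For melanocyte spots it was 0 with the highest marker class and with no filter, against 1. With no replicate block, 1 member (Ctss) was higher in myelin spots, against 0, and Ctsl was added in fibrous spots; the block changed no other call. With a frame left out, the number higher ranged from 0 to 1 in the inner retina, myeloid-marker and melanocyte comparisons, and the number lower from 0 to 1 in the inner retina. Over the same alternatives, the number of all genes called higher and lower ranged from 90 to 172 and 32 to 249 in pigment epithelium minus neural retina (124 and 111 as reported), from 66 to 190 and 12 to 455 in fibrous minus neural retina (143 and 205), from 12 to 47 and 2 to 28 in pigment epithelium minus fibrous (38 and 11), from 428 to 1398 and 322 to 969 in inner retina minus photoreceptor (848 and 741), from 8 to 58 and 2 to 39 for myeloid-marker spots (30 and 8), and from 16 to 150 and 19 to 168 in melanocyte minus pigment epithelium (72 and 69). In myelin minus neural retina it was 8 and 0 without frame 3 and 204 and 468 with no replicate block (122 and 120).

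Some folds that missed the limit changed sign. In pigment epithelium minus neural retina these were Ctsb at -0.11 and Ctss at -0.30 with no filter, Ctss at -0.16 with resolution 1, and Lamp1 at 0.12 with the minimum of 50; with a frame left out Ctsl ranged from -0.04 to 1.16 and Ctss from -0.31 to 0.47. In fibrous minus neural retina, Lamp1 was -0.15 with the minimum of 10, -0.03 with the highest marker class and -0.02 with no filter, and Ctss ranged from -0.04 to 0.89 with a frame left out. In pigment epithelium minus fibrous, Ctsb was 0.31 with the minimum of 10 and 0.10 with the highest marker class. In inner retina minus photoreceptor, the minimum of 50 gave Ctsd 0.20 and Ctsb 0.06, and Ctsb ranged from -0.39 to 0.16 with a frame left out. In myelin minus neural retina, no filter gave Ctsd -0.31, Ctsb -0.68 and Psap -0.80, DESeq2 gave Ctsb -0.02 and Psap -0.18, and with a frame left out Ctsb ranged from -0.42 to 0.42, Ctsl from -0.14 to 1.68 and Psap from -0.81 to 0.45. In melanocyte minus pigment epithelium, Ctsd and Psap were 0.27 and 0.32 with the minimum of 10, 0.19 and 0.09 with k-means, 0.04 and 0.02 with no filter, Ctsb was -0.20 with the highest marker class, and with a frame left out Ctsd ranged from -0.21 to 0.17 and Psap from -0.45 to 0.22. The cause of these changes was not tested. The minimum of 50 gave no fibrous cluster and no value for the fibrous, melanocyte and myelin comparisons, and the melanocyte comparison had too few spots without myeloid UMIs. The melanocyte comparison was added after the data were seen. Depth limits the myelin values, which rest on 0 to 20 UMIs a gene, and Grn and Ctsz in pigment epithelium spots, with 2 and 12.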

Other observations

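Spots that could not be placed in a region, 2160 of 4603, held 37.5% of all Ctss UMIs but 21.7% of all UMIs. Ctss averaged 179 ± 86.0 CPM there, and Ctsd 219 ± 55.6 and Psap 425 ± 36.0 CPM (SD, n = 4). In other regions, Psap averaged 620 ± 288 CPM in spots led by haemoglobin genes (SD, n = 3 frames). It averaged 364 ± 148 CPM in spots led by keratins and 341 ± 234 CPM in spots led by muscle genes (SD, n = 4). These spots were not pure either, as the photoreceptor panel summed to means of 28078, 54374 and 52091 CPM in them. Grn had 0 of 98639 UMIs in muscle spots, where the limit of 3 counts is 30.4 CPM.

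CACGTG stood in 7 of 18 promoters of the sorting and control genes (38.9%), 4 of 12 of other cathepsins (33.3%), 6 of 23 of glycosidases and lipid hydrolases (26.1%), 4 of 16 of V-ATPase genes (25%), 4 of 22 of disc phagocytosis genes (18.2%), 3 of 19 of lysosomal membrane genes (15.8%), 1 of 15 of myeloid markers (6.67%) and 0 of 5 of cathepsin inhibitors, against 7.15% of all promoters. A match describes these letters only.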
